A study of Danio rerio with 2 samples.

Results

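The 6 genes described here, runx3, gata3, tbx21, il7r, nitr4a and nitr9, were chosen as genes tied to the identity of innate lymphoid cells. They were taken by symbol from the 27056 gene symbols measured in the larval zebrafish gut, and each of the 6 matched a single feature: runx3 (ENSDARG00000052826), gata3 (ENSDARG00000016526), tbx21 (ENSDARG00000004473), il7r (ENSDARG00000078970), nitr4a (ENSDARG00000075288) and nitr9 (ENSDARG00000028333). The study asked how the cytokine Il26 acts on the gut early in life, and single cells were captured from whole guts at 5 days post-fertilization (dpf). The il26KO library came from larvae of a CRISPR/Cas9 line deficient in il26, and the WT library from larvae of WT fish. The parents of both were clutchmates kept in separate tanks. Each library was a pool of 50 guts that had been digested in 5 tubes, so each genotype had 1 library and nothing below has a replicate check.

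Innate lymphoid cells resemble T cells but carry no rearranged antigen receptor, and they sit in barrier tissues such as the gut. In mammals they are sorted into groups by the transcription factor that directs them, such as T-bet (tbx21) in group 1 and Gata3 in group 2. Runx3 acts in groups 1 and 3 in mice, and the IL-7 receptor chain encoded by il7r carries a survival signal in many lymphocytes. The nitr genes encode immune-type receptors, immunoglobulin-domain proteins of bony fish, and nitr4a is used as a marker of zebrafish innate lymphoid cells.

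The libraries held 122200924 unique molecular identifiers (UMIs) in il26KO and 125236138 in WT. After filtering, 3842 il26KO cells and 5123 WT cells were kept, with median depths of 14187.5 and 10219 UMIs per cell, and 9 barcodes were shared between the kept cells of the libraries. The targeted gene il26 had 0 UMIs in il26KO cells and 1 UMI in WT cells. Both values were under the limit of 3 counts, so il26 gave no check of the labels. Intervals below are 95% intervals for counting error only, exact Poisson for levels in CPM, which are UMIs scaled to the total of the cells summed, and Clopper-Pearson for shares of cells.

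Most UMIs of 4 of the 6 genes lay in a small set of cells. Cells with at least 1 UMI of coro1a and at least 1 of lcp1, both actin-binding proteins of leukocytes, were 186 of 3842 il26KO cells (4.84%, interval 4.18% to 5.57%) and 182 of 5123 WT cells (3.55%, interval 3.06% to 4.1%). Of the UMIs of both libraries together, these cells held 95.6% for nitr9, 92.6% for nitr4a, 89.9% for il7r and 82.3% for runx3, against 33.5% for gata3 and 19.2% for tbx21. The coro1a+ lcp1+ cells were deeper than the rest, with medians of 24794.5 UMIs in il26KO and 19542 UMIs in WT. Of them, 179 of the 186 il26KO cells and 175 of the 182 WT cells fell in the leukocyte-like class. The classes were made without the 6 genes but with coro1a and lcp1, which are also leukocyte naming markers, so this overlap is partly built in. The level of coro1a in them was 780 CPM in il26KO and 452 CPM in WT, so the chosen cells differed between the libraries in a gene that chose them.

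Across gut classes, runx3 was highest in leukocyte-like cells in both libraries. It had 1133 CPM there in il26KO (interval 1104 to 1164, 181 of 203 cells) and 1031 CPM in WT (interval 1000 to 1063, 191 of 228 cells). The next class was epithelial progenitor-like in il26KO, at 30.6 CPM, and skeletal muscle-like in WT, at 26.6 CPM, below the upper limits of 39.3 and 63.1 CPM from droplets of 10 to 100 UMIs, which hold free RNA. These lower levels were therefore not set apart from free RNA, and its part in them was not tested. By counting error alone, the il26KO epithelial progenitor-like interval (25.2 to 36.9 CPM) lay above that of mesenchymal-like cells (14.5 to 24.0 CPM). Both levels include coro1a+ lcp1+ cells. Outside those cells lay 82 of the 111 epithelial progenitor-like UMIs and 52 of the 64 mesenchymal-like UMIs. The intervals without coro1a+ lcp1+ cells were not computed, so this order may rest on them. In WT the skeletal muscle-like (18.3 to 37.3 CPM) and epithelial progenitor-like (17.1 to 26.7 CPM) intervals overlapped. Of the 33 runx3 UMIs of the WT skeletal muscle-like class, 30 lay in 1 cell, which had both coro1a and lcp1 UMIs.

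The receptor genes were near 0 outside the leukocyte-like class. The level of il7r in leukocyte-like cells was 31.4 CPM in il26KO (interval 26.6 to 36.8) and 29.9 CPM in WT (interval 24.8 to 35.7), and 12 of the 15 il26KO classes and 7 of the 16 WT classes with at least 20 cells had 0 UMIs. For nitr4a the leukocyte-like levels were 39.8 CPM (interval 34.4 to 45.9) in il26KO and 34.6 CPM (interval 29.1 to 40.8) in WT, with 10 classes at 0 in each library. For nitr9 they were 16.9 CPM (interval 13.5 to 21.0) in il26KO and 21.0 CPM (interval 16.8 to 26.0) in WT, with 13 and 11 classes at 0. In the WT library, 8 nitr9 UMIs outside the leukocyte-like class sat in 1 cell of the anterior enterocyte-like class, and that cell had both coro1a and lcp1 UMIs.

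Gata3 did not follow this order. It was highest in neuron-like cells, at 82.9 CPM in il26KO (interval 60.9 to 110, 14 of 57 cells) and 80.6 CPM in WT (interval 56.1 to 112, 9 of 52 cells). In il26KO, leukocyte-like cells (16.9 CPM, interval 13.5 to 21.0) and vascular endothelial-like cells (12.2 CPM, interval 8.75 to 16.5) came next and overlapped. In WT, vascular endothelial-like cells (8.08 CPM, interval 5.41 to 11.6), skeletal muscle-like cells (5.64 CPM, interval 2.27 to 11.6) and leukocyte-like cells (4.2 CPM, interval 2.45 to 6.73) overlapped. Only the neuron-like interval lay wholly above the upper limits from near-empty droplets, 13.9 CPM in il26KO and 9.91 CPM in WT. These limits rest on 1 gata3 UMI in il26KO droplets and 0 in WT droplets, so free RNA of gata3 was barely measured.

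Tbx21 was barely detected. It had 14 UMIs in 12 il26KO cells and 12 UMIs in 12 WT cells, scattered over classes, and 3 and 2 of these UMIs were in coro1a+ lcp1+ cells. Both values were at or under the limit of 3 counts, so no ratio is given and no order of classes can be read.

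**Figure D1:**
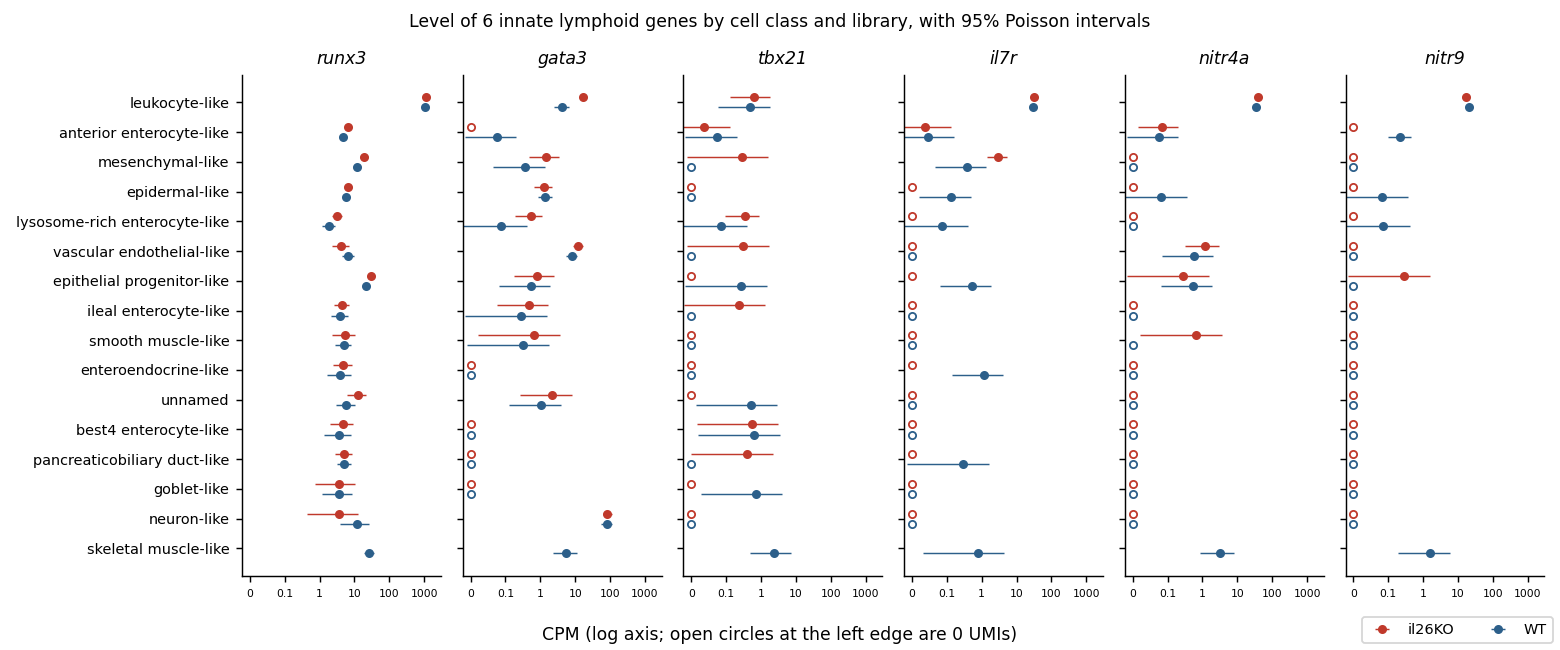
Level of each gene in CPM (log axis) by cell class, il26KO in red above WT in blue, with 95% Poisson intervals; open circles are classes with 0 UMIs, and classes under 20 cells in a library are left out. In both libraries runx3, il7r, nitr4a and nitr9 were highest in the leukocyte-like class, whereas gata3 was highest in neuron-like cells at 82.9 CPM (il26KO) and 80.6 CPM (WT).

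Genes whose pattern over classes was most like that of each member were found by the Pearson correlation of log2(CPM + 10) over 29 class-by-library sums. These points share libraries and depth, so r is a description. Runx3, il7r, nitr4a and nitr9 were far higher in the leukocyte-like sums than elsewhere. Other genes mostly confined to that class would also reach a high r with them, so r does not show a more specific likeness. For runx3 they were si:dkey-171c9.3 (r = 0.983), wasb (0.982) and CR936442.1 (0.981). The 3 genes nearest to il7r were il2rb (r = 0.996), which encodes a chain of the interleukin 2 and 15 receptors, cxcl19 (0.993) and si:ch211-112c15.8 (0.991). Those nearest to nitr4a were si:ch211-196f2.6 (0.997), ENSDARG00000096331 (0.996) and plac8l1 (0.995), and those nearest to nitr9 were ENSDARG00000103077 (0.999), tnfsf18 (0.999) and ENSDARG00000096331 (0.996). For gata3 the nearest genes were CHST8 (0.948), dtnbp1b (0.945) and trpm2 (0.944), of whose UMIs between 6.19% and 17.5% lay in coro1a+ lcp1+ cells. For tbx21 they were nme2b.2 (0.902), mylk4b (0.883) and csrp3 (0.876), though tbx21 itself had too few UMIs to be resolved.

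Within the coro1a+ lcp1+ cells, runx3 was found in 170 of 186 il26KO cells (91.4%) and in 160 of 182 WT cells (87.9%), with medians of 22 and 14 UMIs per positive cell. The shares in vascular endothelial-like cells, a class outside the blood lineage, were 2.61% at a median of 7129 UMIs in il26KO and 4.17% at a median of 5418 UMIs in WT. After thinning every cell to 5000 UMIs, which left out 7 il26KO and 10 WT cells of the set as too shallow, the shares with runx3 were 81.6% in il26KO and 72.1% in WT, against 1.74% and 2.98% in vascular endothelial-like cells. The thinning left out more of that class, 115 of 345 il26KO and 197 of 432 WT cells, so its thinned shares are those of its deeper cells. Il7r was found in 67 il26KO cells (36.0%, interval 29.1% to 43.4%) and in 53 WT cells (29.1%, interval 22.6% to 36.3%), with medians of 2 and 1 UMIs per positive cell. The highest il7r count in a cell was 16 in il26KO and 7 in WT. Il7r had 4 UMIs in the 3656 il26KO cells outside the set and 26 UMIs in the 4941 WT cells outside it.

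Nitr4a had a UMI in 34 il26KO cells (18.3%, interval 13% to 24.6%) and in 35 WT cells (19.2%, interval 13.8% to 25.7%). Nitr9 had one in 31 il26KO cells (16.7%, interval 11.6% to 22.8%) and in 39 WT cells (21.4%, interval 15.7% to 28.1%). The most in a cell was 19 and 10 UMIs for nitr4a, and 9 and 8 UMIs for nitr9, in il26KO and WT. In the RefSeq gene order nitr4a lies between nitr5 and nitr6a, and nitr9 between nitr11a and nitr7a. Reads of such related neighbours can be hard to assign to a single gene, so the values of single nitr genes are uncertain.

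Gata3 had a UMI in 18 il26KO cells (9.68%, interval 5.84% to 14.9%) and in 5 WT cells (2.75%, interval 0.898% to 6.29%). The shares in vascular endothelial-like cells were 9.86% in il26KO and 6.48% in WT, so the share with a UMI did not set the coro1a+ lcp1+ cells above that class. At 5000 UMIs per cell the shares were 4.47% of coro1a+ lcp1+ cells in il26KO and 1.16% in WT, against 4.35% and 5.11% of the vascular endothelial-like cells deep enough to be thinned. The counts per cell did differ in form. Single coro1a+ lcp1+ cells held up to 14 gata3 UMIs in il26KO and up to 13 in WT, and no vascular endothelial-like cell held more than 3.

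**Figure D2:**
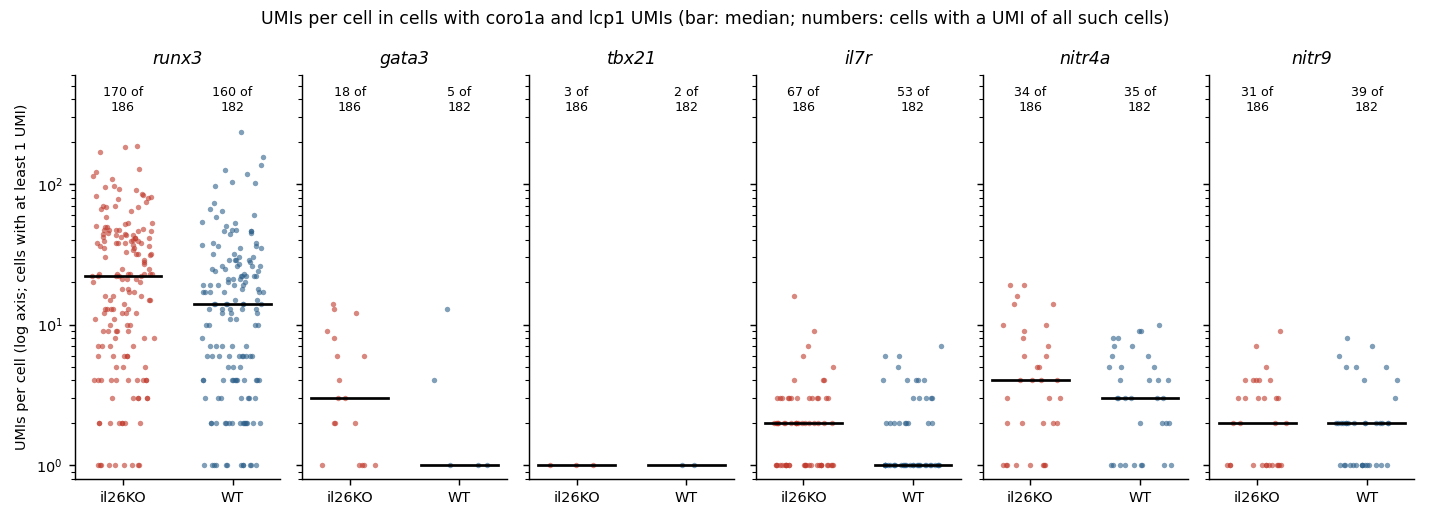
UMIs per cell (log axis) of each gene in the coro1a+ lcp1+ cells with at least 1 UMI, il26KO at the left and WT at the right of each panel; bars are medians, and the numbers give cells with a UMI of all cells. Runx3 reached 186 UMIs in an il26KO cell and 234 in a WT cell, and tbx21 never exceeded 1.

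The other receptor genes were found in a larger share of nitr4a+ than of nitr4a- cells in each library. The split by nitr4a was chosen after its values had been seen, and the shares are descriptions. Cells with and without a nitr4a UMI had near-equal depths, with medians of 25847 and 24597 UMIs in il26KO and 19463 and 19621 UMIs in WT. In il26KO, il7r was found in 31 of 34 nitr4a+ cells (91.2%, interval 76.3% to 98.1%) and in 36 of 152 nitr4a- cells (23.7%, interval 17.2% to 31.3%). In WT it was found in 24 of 35 nitr4a+ cells (68.6%, interval 50.7% to 83.1%) and in 29 of 147 nitr4a- cells (19.7%, interval 13.6% to 27.1%). The intervals of nitr4a+ and nitr4a- cells did not overlap in either library. The share of all genes set apart by this split was not computed. The separation of il7r, and of the genes below, is therefore not set against that of other genes.

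Nitr9 was found in 22 of 34 nitr4a+ il26KO cells (64.7%, interval 46.5% to 80.3%) and in 9 of 152 nitr4a- cells (5.92%, interval 2.74% to 10.9%). In WT it was found in 25 of 35 nitr4a+ cells (71.4%, interval 53.7% to 85.4%) and in 14 of 147 nitr4a- cells (9.52%, interval 5.31% to 15.5%). Runx3 was frequent on both sides, in 34 of 34 nitr4a+ and 136 of 152 nitr4a- cells in il26KO and in 34 of 35 nitr4a+ and 126 of 147 nitr4a- cells in WT. Gata3 was found in 2 nitr4a+ and 16 nitr4a- cells in il26KO and in 0 nitr4a+ and 5 nitr4a- cells in WT, with overlapping intervals.

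The cells were also split by nitr4a at full depth, with only il7r and nitr9 counted at 5000 UMIs per cell. The share of nitr4a+ cells with il7r was then 41.2% in il26KO and 31.4% in WT, against 7.59% and 7.3% of nitr4a- cells. For nitr9 these shares were 14.7% and 37.1% of nitr4a+ cells, against 1.38% and 3.65%. Il7r and at least 1 of the 2 nitr genes were found together in 36 il26KO cells and 33 WT cells, and both nitr genes in 22 and 25 cells. Runx3 alone of the 6 was found in 87 il26KO cells and 89 WT cells, and none of the 6 in 15 and 20 cells.

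The gata3 UMIs were concentrated in few cells. The 2 il26KO cells with most gata3 UMIs, 14 and 13, had no il7r, nitr4a or nitr9 UMI. The il26KO cells with 12, 9 and 8 gata3 UMIs each had at least 1 il7r or nitr9 UMI. The WT cell with 13 gata3 UMIs had 1 nitr9 UMI. Gata3 and at least 1 of the 2 nitr genes were found together in 4 il26KO cells and 3 WT cells. Il13, a cytokine of group 2 cells, had 35 UMIs in il26KO and 0 in WT, and 34 of them lay in 2 cells with 23 and 11 UMIs. These cells, which had 6 gata3 UMIs each, also held 62 and 37 UMIs of il4. The first of them had 94797 UMIs in all and fell in the lysosome-rich enterocyte-like class, and the second had 32445 UMIs and was leukocyte-like. Unlike il13, il4 was also found in WT, with 12 UMIs in 6 of the coro1a+ lcp1+ cells. The WT cells with 13 and 4 gata3 UMIs held 2 and 3 il4 UMIs. The WT cell with most il4 UMIs, 4, had 0 gata3 UMIs.

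The other genes of the innate lymphoid lists were read in the same cells. Of the 70 other listed genes measured, 47 had at least 20 UMIs in the coro1a+ lcp1+ cells. The receptor gene il23r, of the type 3 list, was found in 25 of 34 nitr4a+ and 14 of 152 nitr4a- il26KO cells, and in 24 of 35 nitr4a+ and 8 of 147 nitr4a- WT cells. Il17a/f1, a cytokine gene of group 3 cells, had all 30 of its il26KO UMIs and 17 of its 18 WT UMIs in nitr4a+ cells, in 6 and 7 cells. All 10 il26KO and 21 WT UMIs of il22, another cytokine of that group, were in nitr4a+ cells as well, in 5 and 4 cells. For il17a/f3 the counts were 29 of 37 UMIs in il26KO and 12 of 15 in WT.

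Among the other nitr genes the largest counts belonged to nitr5, with 184 of 226 il26KO UMIs and 190 of 290 WT UMIs in nitr4a+ cells, and to nitr6b, with 82 of 170 and 51 of 78. The part that reads hard to assign between nitr4a and its neighbours have in this overlap was not tested.

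**Figure D3:**
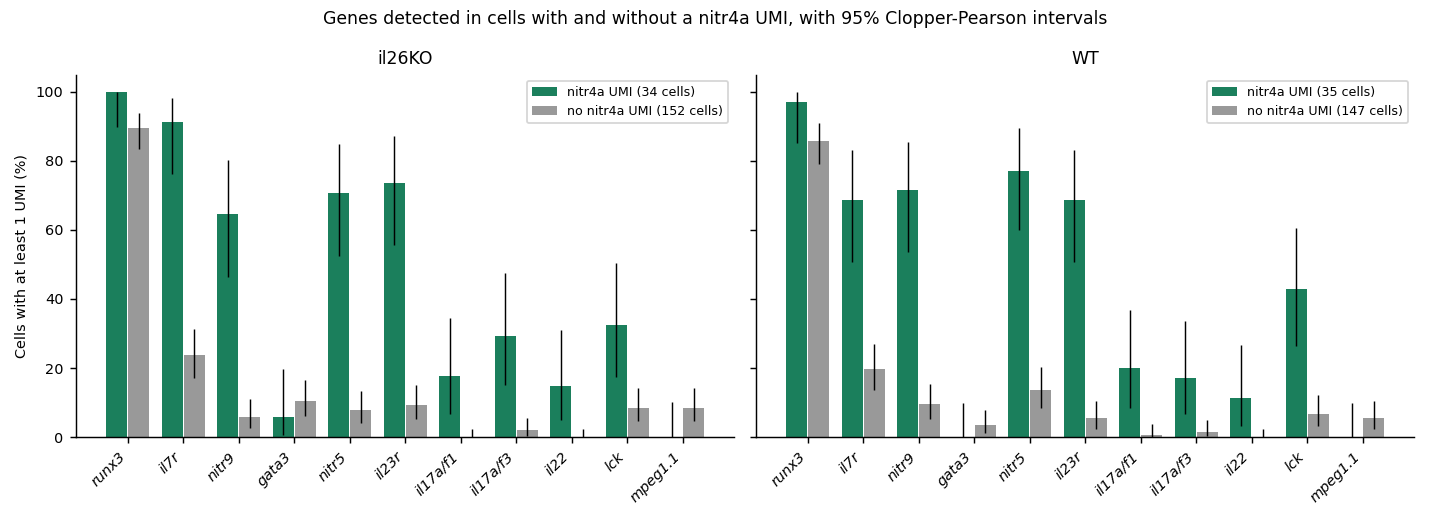
Percent of coro1a+ lcp1+ cells with at least 1 UMI of each gene, split into cells with (green) and without (grey) a nitr4a UMI, il26KO at the left and WT at the right, with 95% Clopper-Pearson intervals. For il7r the green bars stand at 91.2% and 68.6% and the grey bars at 23.7% and 19.7%.

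Markers of T cells were also read, since T cells can express gata3 and il7r. Of 10 T cell genes measured, cd247, rag1 and rag2 had 0 UMIs in the coro1a+ lcp1+ cells of both libraries. Cd247 encodes a subunit of the T cell receptor complex, and rag1 and rag2 the recombinase that builds the receptor genes. Every other measured gene of the list had at least 1 UMI in both libraries, and not all of them are given below. The list summed to 177 UMIs (34.6 CPM) in il26KO and 154 UMIs (38.2 CPM) in WT. Lck, a kinase of T cells and other lymphocytes, was found in 11 of 34 nitr4a+ and 13 of 152 nitr4a- il26KO cells, and in 15 of 35 nitr4a+ and 10 of 147 nitr4a- WT cells. Cd28, a costimulatory receptor of T cells, was found in 18 nitr4a+ and 15 nitr4a- il26KO cells, and in 15 nitr4a+ and 15 nitr4a- WT cells. The shares of both genes were thus higher in nitr4a+ cells, and their intervals did not overlap those of nitr4a- cells in either library. Here too the share of all genes set apart in this way was not computed. Cd8a was found in 1 nitr4a+ and 2 nitr4a- il26KO cells and in 1 nitr4a+ and 3 nitr4a- WT cells, and cd4-1 in 0 nitr4a+ cells of either library, against 1 nitr4a- cell in il26KO and 5 in WT. The macrophage gene mpeg1.1 was found in 0 nitr4a+ cells of either library, against 13 nitr4a- cells in il26KO and 8 in WT.

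When the 203 il26KO and 228 WT leukocyte-like cells were clustered again without these genes and the other listed genes, 7 subclusters were found. Subcluster 0, led by the chemokine gene ccl20a.3, held 59 il26KO and 65 WT cells, and subcluster 5, led by zgc:165555 and hmgn2 with the cycling gene mki67 among its leading genes, held 21 and 17. Together they held 98.4% of the nitr4a UMIs of the class in il26KO and 100% in WT, and 97.6% and 100% of the nitr9 UMIs. For il7r the shares were 75% and 83.5%, and for runx3 55.8% and 59.8%. They made up 39.4% of the il26KO and 36.0% of the WT leukocyte-like cells. No T cell, B cell or cytotoxic marker list met the naming rule for any of them, so they are given by number. In subclusters 0 and 5 the T cell list scored highest of the lists, with 0 of its 10 measured markers passing. The T cell gene lck nevertheless lay mostly in these 2 subclusters, with 31 of the 35 UMIs of the class in il26KO and 40 of 42 in WT, and the part of T cells in the values of the nitr genes was not tested.

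Nitr4a overlapped between libraries in subcluster 0 (130 CPM, interval 110 to 152, in il26KO and 106 CPM, interval 86.5 to 128, in WT) and did not in subcluster 5 (48.5 CPM, interval 33.4 to 68.1, in il26KO and 109 CPM, interval 76.1 to 150, in WT). Nitr9 did likewise, at 40.5 CPM in il26KO and 50.9 CPM in WT in subcluster 0, and at 45.5 CPM in il26KO and 106 CPM in WT in subcluster 5. The subcluster 5 levels of nitr4a came from 33 UMIs in 9 of 21 il26KO cells and 36 UMIs in 9 of 17 WT cells. Those of nitr9 came from 31 UMIs in 9 il26KO cells and 35 UMIs in 11 WT cells. The share of all genes that were apart in subcluster 5 alone was not computed.

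Runx3 was not confined to these 2 subclusters. Subcluster 4, led by si:ch211-161c3.6, gab2 and ccnd2a, had 2149 CPM of runx3 in il26KO (interval 2020 to 2284) and 1942 CPM in WT (interval 1788 to 2105), with 0 UMIs of nitr4a and nitr9 in both. The macrophage-like subcluster 3 had 631 CPM of runx3 in il26KO, in 25 of 35 cells, and 637 CPM in WT, in 7 of 23 cells. In WT this level came mostly from 3 cells with 102, 29 and 17 of the 155 UMIs.

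Gata3 was found in il26KO subclusters 0 (32 UMIs in 5 cells), 5 (28 UMIs in 5 cells) and 4 (17 UMIs in 4 cells). In WT it had 15 UMIs in 3 cells of subcluster 0, 0 UMIs in subcluster 5 and 1 UMI in subcluster 4. Each of these sums came from a handful of cells.

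**Figure D4:**
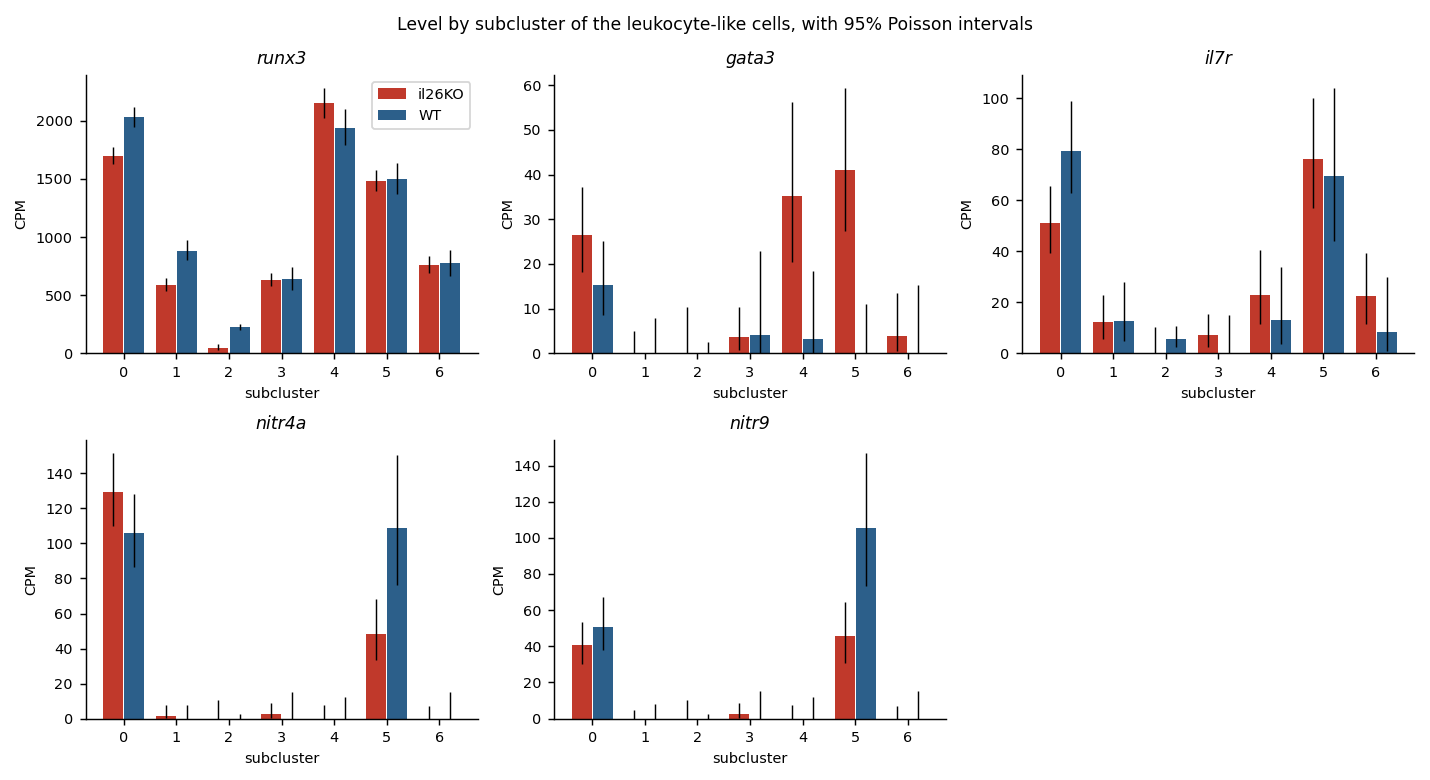
Level in CPM of 5 genes in the 7 subclusters of leukocyte-like cells, il26KO in red at the left of WT in blue, with 95% Poisson intervals; tbx21 is left out for its few UMIs. Nitr4a and nitr9 stood almost wholly in subclusters 0 and 5, whereas runx3 was also high in subcluster 4, at 2149 CPM (il26KO) and 1942 CPM (WT). Nitr4a in subcluster 5 was at 48.5 CPM (il26KO, 9 of 21 cells with a UMI) and 109 CPM (WT, 9 of 17 cells).

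Between the libraries, runx3 in the coro1a+ lcp1+ cells had 5337 UMIs (1044 CPM) in il26KO and 3612 UMIs (895 CPM) in WT, a log2 ratio, il26KO over WT, of 0.22 (interval 0.16 to 0.28). Gata3 had 89 UMIs (17.4 CPM) in il26KO and 20 UMIs (4.96 CPM) in WT, a log2 ratio of 1.81 (interval 1.1 to 2.59). Nitr9 had 80 UMIs (15.7 CPM) in il26KO and 92 UMIs (22.8 CPM) in WT, a log2 ratio of -0.54 (interval -0.99 to -0.09). These 3 intervals excluded a ratio of 1. That of nitr9 no longer did when the cells outside the leukocyte-like class were left out (80 UMIs in il26KO and 81 in WT, log2 ratio -0.41, interval -0.88 to 0.05). The WT cell of the anterior enterocyte-like class, with 68160 UMIs in all, gave 8 of the 92 WT nitr9 UMIs.

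Il7r, with 159 UMIs (31.1 CPM) in il26KO and 107 UMIs (26.5 CPM) in WT, had a log2 ratio of 0.23 (interval -0.13 to 0.60). Nitr4a, with 191 UMIs (37.4 CPM) in il26KO and 136 UMIs (33.7 CPM) in WT, had a log2 ratio of 0.15 (interval -0.18 to 0.48). Differences of these 2 genes were not detectable at this depth.

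Differences of this kind were common between the libraries. Of 12491 genes with at least 20 UMIs in these cells, 30.8% had an interval that excluded a ratio of 1 and 32.1% were at least 1.5-fold apart. The median log2 ratio was -0.02 over all of them and 0.22 over the 5 genes described here with at least 20 UMIs. Of these 5, only gata3 was at least 1.5-fold apart, which is 1 of 5, and 3 of 5 had an interval that excluded 1. Among the 47 other listed genes 13 were higher and 15 lower in il26KO beyond counting error. Of the 6 genes of the type 3 list with at least 20 UMIs 2 were higher and 2 lower. There il17a/f3 was higher (log2 ratio 0.96, interval 0.06 to 1.93), il23r was higher (214 UMIs in il26KO and 99 in WT, log2 ratio 0.77, interval 0.42 to 1.13) and il22 (10 and 21 UMIs, -1.41, interval -2.66 to -0.26) and the aryl hydrocarbon receptor gene ahr2 (-0.24, interval -0.38 to -0.09) were lower. Most WT UMIs of il22 came from few cells, since 18 of them lay in 2 leukocyte-like cells of subcluster 5. Of the 12 shared regulators with at least 20 UMIs 2 were higher and 5 lower. Among them runx1, a blood stem cell and progenitor factor, was lower (32 UMIs in il26KO and 83 in WT, log2 ratio -1.72, interval -2.35 to -1.11). Of the 7 other nitr genes with at least 20 UMIs, nitr6b was higher (0.78, interval 0.39 to 1.19), nitr5 (-0.70, interval -0.96 to -0.44) and nitr2b (15 and 26 UMIs, -1.13, interval -2.16 to -0.16) were lower, and 4 lay within counting error.

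Some of these ratios differed when they were computed on other sets of cells, and the part of cell make-up in them was not tested. Subcluster 2, led by meis1b and dnmt3bb.1, gave 7 of these 186 cells in il26KO and 40 of 182 in WT. Its 57 WT cells in the leukocyte-like class had 0 gata3, nitr4a and nitr9 UMIs and 226 CPM of runx3. Macrophage markers (9 of 9 measured, 0 of them at 0) differed between the libraries as well and summed to 246 CPM in the coro1a+ lcp1+ cells of il26KO and 106 CPM in those of WT, and their part in the ratios was not tested. Without subcluster 2, an alternative chosen after the data had been seen, the log2 ratio of nitr9 was -0.98 (interval -1.43 to -0.53). That of runx3 changed sign, to -0.09 (interval -0.16 to -0.03), and that of gata3 was 1.38 (interval 0.67 to 2.16). Over all genes 27.3% of intervals then excluded a ratio of 1. In subclusters 0 and 5 alone, which were singled out after their nitr4a and nitr9 values had been seen and held 80 il26KO and 82 WT cells, 19.4% of all genes had an interval that excluded 1. Nitr9 was at -0.61 (interval -1.07 to -0.16) there, runx3 at -0.23 (interval -0.30 to -0.15) and gata3 at 1.47 (interval 0.64 to 2.40), whereas nitr4a (-0.09, interval -0.41 to 0.24) and il7r (-0.35, interval -0.75 to 0.05) lay within counting error.

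The gata3 UMIs came from few cells, 18 in il26KO and 5 in WT, and in WT 13 of the 20 lay in 1 cell. In the set, 39 of the 89 il26KO UMIs lay in 3 cells, and 18 of the 20 WT UMIs did. Without the cell with most gata3 UMIs in each library the log2 ratio was larger, at 3.08 (75 UMIs in il26KO and 7 in WT, interval 1.97 to 4.44). After thinning to 5000 UMIs per cell the counts were 11 in il26KO and 7 in WT, a log2 ratio of 0.59 with an interval of -0.90 to 2.20. This interval also held the main log2 ratio of 1.81. With equal weight per cell the log2 ratio was 1.43. The il26KO cells were deeper, and the part of depth in these ratios was not tested.

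**Figure D5:**
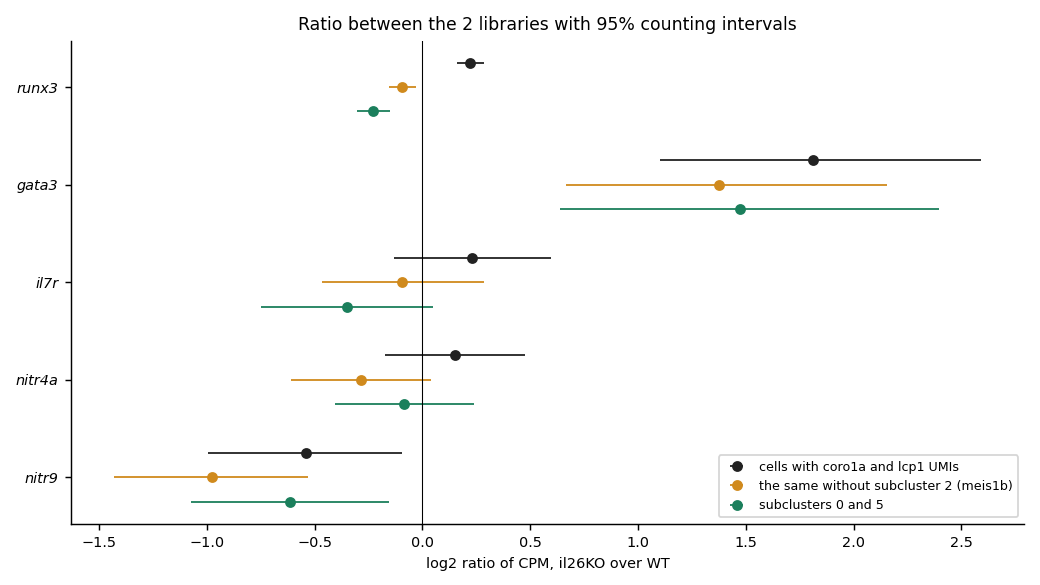
Log2 ratio of CPM, il26KO over WT, with 95% counting intervals for 5 genes in the coro1a+ lcp1+ cells (black), in the same cells without subcluster 2 (orange) and in subclusters 0 and 5 (green). Runx3 changed sign between the sets (0.22, -0.09 and -0.23), and nitr9 lay below 0 in all 3 (-0.54, -0.98 and -0.61).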

How the data were processed

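The members and gene lists were chosen with earlier results of these data known. Of the 7 genes chosen, 1 is not reported here. Droplet libraries of whole guts were made with a 3′ kit. The authors deposited raw UMI counts per gene and barcode, with empty barcodes kept; the headers name Cell Ranger 7.1.0, and the build is danRer11 per the submitters' processing notes; annotation release and intron setting are not given in the sources used here. Features sharing a symbol were summed (27771 features). Cells were barcodes with at least 500 genes and at most 25% mitochondrial UMIs, which removed 300 il26KO and 309 WT barcodes. The automatic Scrublet threshold (scanpy 1.11.5) marked 1 doublet per library, so the highest-scoring 126 il26KO and 229 WT barcodes were removed instead, at 0.8% per 1000 cells. Clustering used Seurat 5.3.0 in R 4.3.3 (2000 variable genes, CCA integration, 30 dimensions, resolution 0.8) with 77 genes, the members and the listed lymphoid genes, kept out; leukocyte-like cells were clustered again (20 dimensions, resolution 0.6). A cluster was named when at least 3 markers of a list were at least 2-fold higher and in at least 10% of its cells, unless its 10 leading genes held more markers of another list, which left 1 cluster unnamed. With 1 library per group no test was made and no p-value is given. The interval of a log2 ratio came from an exact binomial split of the UMIs, without a pseudocount. It was tried only on simulated Poisson counts, the model that it assumes. These leave out the gathering of UMIs in few cells, so how well the intervals hold for the real counts was not tested. Named genes were the 6 reported, listed genes with at least 20 UMIs, and the 3 genes most like each member among those with at least 100 UMIs. Gene neighbours came from the RefSeq table of another assembly than that of the files. Alternatives changed the cell filters, gate, scaling, depth and clustering.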

Additional observations from a re-analysis of the deposited data

How the results depend on the processing

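No paired analysis was possible because each group has 1 library. Apart from thinning to 1000 UMIs, the log2 ratio of il7r, between -0.093 and 0.355, and that of nitr9, between -0.98 and -0.16, stayed inside the counting interval of the main value under 15 alternatives each. The interval of nitr9 nevertheless included a ratio of 1 in the leukocyte-like class (-0.77 to 0.14), in its coro1a+ lcp1+ cells (-0.88 to 0.05), over all kept cells (-0.60 to 0.27), without the deepest cells outside the class (-0.90 to 0.03) and at 5000 UMIs per cell (-2.08 to 0.15). Those of il7r (0.02 to 0.70) and nitr4a (0.17 to 0.80) excluded 1 over all kept cells. The share of all genes that did so over all kept cells was not computed. The coro1a+ lcp1+ cells were 4.84% of il26KO and 3.55% of WT kept cells, and the part of this in those ratios was not tested. Over all kept cells the log2 ratio was 0.438 for runx3, 0.834 for gata3 and 0.481 for nitr4a. With at least 2 UMIs of coro1a and lcp1 it was 0.0743 for runx3, and 2.85% of WT cells qualified. With at least 1 UMI of either gene, runx3 was at 0.156 and the shares were 8.62% in il26KO and 7.07% in WT. Runx3 was at 0.136 in the leukocyte-like class. Thinned to 1000 UMIs, runx3 was at 0.0572 and nitr4a at -1.16, with shares of 1.09% in il26KO and 0.553% in WT, and at 3 UMIs or fewer in a library no direction can be read for il7r (4 UMIs in il26KO and 1 in WT, log2 ratio 1.98, interval -1.36 to 7.6), nitr9 (4 and 3 UMIs, 0.39, interval -2.17 to 3.16) or gata3 (3 and 0 UMIs). The share of coro1a+ lcp1+ cells was 3.28% in il26KO and 2.73% in WT with at least 300 genes per cell, and 5.59% and 4.27% with at least 1000. Chosen after the data had been seen, thinning to 5000 UMIs gave 0.595 for gata3 and -0.24 for nitr4a, leaving out the meis1b-led subcluster gave -0.0936 for runx3 and -0.287 for nitr4a, and leaving out the cell with most UMIs gave 3.08 for gata3. With the libraries merged without integration, leukocyte-like levels were 945 CPM in il26KO and 860 CPM in WT for runx3, 33.6 and 28.8 CPM for nitr4a, and 26.4 CPM in il26KO for il7r. The causes were not tested. Tbx21 had too few UMIs throughout for a direction to be read.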
